A study of Rattus norvegicus with 12 samples.

Results

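The 7 genes described here encode surface receptors and a signalling kinase of T cells: Lck, Cd2, Cd4, Cd5, Cd8a, Cd8b and Cd28. They were taken as every probe set whose platform symbol is one of these names, which gave 8 of the 8740 probe sets tested and 7 of the 4736 genes that probe sets with 1 symbol named. Cd5 had 2 probe sets and each other gene had 1. A probe set is a group of short oligonucleotides that together measure 1 transcript, and its value is an intensity on a linear scale.

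Lungs of male Sprague-Dawley rats of 300 to 420 g were hybridised to 12 rat expression arrays from Affymetrix, and 4 groups had 3 arrays each. All rats were cannulated at the femoral artery and jugular vein and had a laparotomy, which is the trauma that every group shares. T/HS rats (trauma and hemorrhagic shock) were bled to a pressure of 30 mmHg for 90 min with the lymph duct open, and the study states that they had lung injury. T/HS-LDL rats had the same shock with the lymph duct ligated and no measurable lung injury. T/SS-LDL rats had the duct ligated and a sham period of 90 min without bleeding. T/SS rats had the sham period with the duct open and no lung injury. Lungs were removed 3 h after the period ended, 4.5 h after its start.

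In each group a pair of arrays was near-identical, with a robust SD of log2 differences of 0.00993 to 0.0548. All 8 remaining pairs of arrays from the same group differed more, by 0.164 to 0.232. The arrays of such a pair (replicates 2 and 3 of T/SS, replicates 1 and 3 of the other groups) were averaged and counted as 1 sample. The comparisons therefore rest on 8 samples, 2 per group. The median intensity per array was 651 to 680. The surfactant gene Sftpc, a marker of lung epithelium, stood at 29933 to 32490 in the 8 samples, near the top of the scale. Whole lung was measured, so fewer T cells and less RNA per T cell cannot be told apart.

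T cells recognise antigen with a receptor that has no enzyme of its own. Lck, a tyrosine kinase bound to the tails of Cd4 and Cd8a, phosphorylates the Cd3 chains of that receptor once Cd4 or Cd8 has gripped the same antigen-presenting molecule. Cd2 and Cd28 add adhesion and a costimulatory signal, and Cd5 dampens the response. Resting lung holds T cells in its capillaries and interstitium.

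The stretches upstream of Lck and Cd2 are shown because these genes had the farthest departures in a sample of all 8 probe sets. Each is the 250 bases before an annotated transcription start in RefSeq (GRCr8), 5′ to 3′ on the strand of the gene, with the match itself in capitals wherever 1 of 3 motifs was found on either strand. The motifs were an ETS core (AGGAAG), a RUNX core (TGTGGT) and an E-box (CAGNTG), and no match overlapped another. Lck has 2 annotated starts, with windows at chr5:147201268-147201517 and chr5:147183651-147183900, and Cd2 has its window at chr2:191412660-191412909. All 3 windows lie on the minus strand.
Lck start 1: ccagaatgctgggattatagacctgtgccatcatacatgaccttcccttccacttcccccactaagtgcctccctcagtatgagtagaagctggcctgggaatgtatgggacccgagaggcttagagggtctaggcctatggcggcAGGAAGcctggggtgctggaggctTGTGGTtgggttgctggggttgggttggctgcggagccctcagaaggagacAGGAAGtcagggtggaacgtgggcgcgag
Lck start 2: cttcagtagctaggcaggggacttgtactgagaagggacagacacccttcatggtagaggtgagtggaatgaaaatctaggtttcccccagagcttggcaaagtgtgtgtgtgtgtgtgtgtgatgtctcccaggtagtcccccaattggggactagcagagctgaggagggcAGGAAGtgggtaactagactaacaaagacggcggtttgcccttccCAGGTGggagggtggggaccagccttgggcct
Cd2: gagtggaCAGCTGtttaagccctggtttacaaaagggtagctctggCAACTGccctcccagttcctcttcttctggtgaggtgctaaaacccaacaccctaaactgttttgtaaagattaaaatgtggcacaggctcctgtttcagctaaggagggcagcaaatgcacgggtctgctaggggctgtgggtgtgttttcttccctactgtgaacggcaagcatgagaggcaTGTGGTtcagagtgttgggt
Start 1 of Lck holds 2 ETS cores and 1 RUNX core, start 2 holds 1 ETS core and 1 E-box, and the Cd2 window holds 1 RUNX core and 2 E-boxes. Among the 33469 windows of 250 bases in the RefSeq table, 29.5% hold the ETS core, 14.5% the RUNX core and 43.3% the E-box, so such matches are common and are given as a description.

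Of the 8 probe sets, 4 lay above the array median on all 12 arrays: those of Lck, Cd4, Cd8a and Cd8b. The brighter Cd5 set (X78985cds_s_at) and the Cd2 set (X05111_at) lay above it on 2 arrays each, in both cases replicates 1 and 3 of T/HS. The dimmer Cd5 set (D10728_at) and the Cd28 set (X55288_at) were below it on all 12. Within the arrays, Lck lay at the 77.8 to 88.5 percentile, Cd8a at 56.7 to 62.6, Cd4 at 55.0 to 60.9, Cd8b at 51.4 to 56.6 and Cd28 at 4.61 to 7.85. Cd2 spanned the 9.55 to 90.7 percentile. Leaving Cd2 aside, the highest array exceeded the lowest by 1.91-fold for Lck and by 1.23- to 1.45-fold for the other 6 probe sets.

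**Figure D1:**
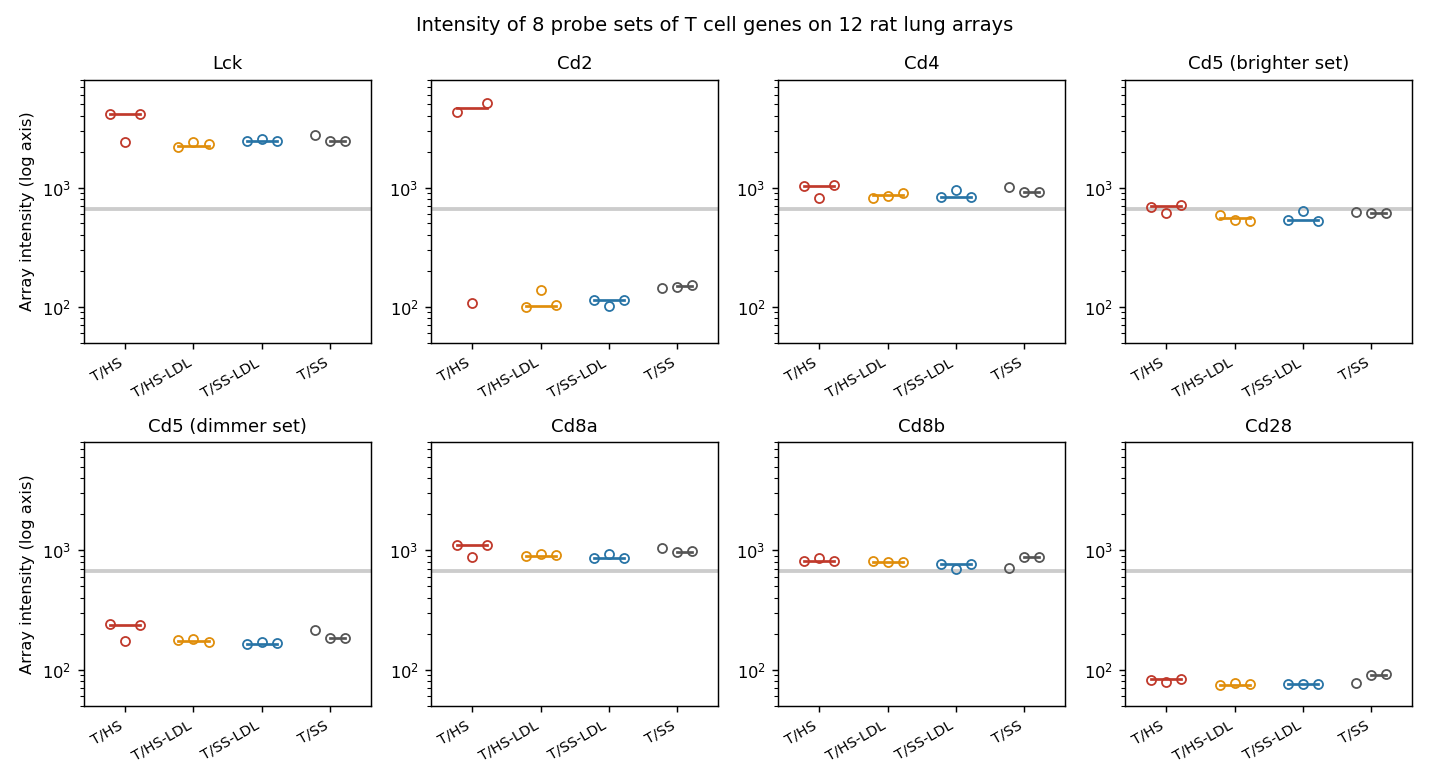
Intensity (log axis) of the 8 probe sets on 12 arrays, by group. Circles are arrays, a coloured line is the mean of a near-identical pair of arrays and the grey band marks the array medians of 651 to 680. Cd2 stands at 4259 and 5089 on T/HS replicates 1 and 3 and at 152 or less on the other arrays, and Lck is highest on the same pair.

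Cd2, an adhesion receptor that in rodents binds Cd48 on the partner cell, was high on a near-identical pair of arrays and low on all others. It had intensities of 4259, 107 and 5089 on T/HS replicates 1, 2 and 3. T/HS-LDL arrays had 99.7, 140 and 104, T/SS-LDL arrays 113, 102 and 113, and T/SS arrays 144, 148 and 152. The near-identical T/HS arrays therefore stood apart from every other array, the remaining T/HS array included. After averaging, the T/HS pair was at 4655, a 31.1-fold step (4.96 on the log2 scale) above the next sample at 149.8. The other 7 samples lay within 1.47-fold of each other. The 2 arrays of the T/HS pair differed from each other by 1.19-fold for Cd2.

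This step was compared with that of every other probe set, taken as the gap between its highest and its next highest sample. Cd2 had the third largest gap of 8740, after Cxcl10 at 83.4-fold and Rsad2 at 31.6-fold. Both of those genes, named for their gaps, are interferon-induced and were highest in T/HS replicate 2. For the averaged T/HS pair, Cd2 had the largest gap, followed on the log2 scale by an unnamed probe set at 2.07 and Slc6a17 at 1.30. Lck was the eighth in that order at 0.58, and Cd3d, a chain of the T cell receptor complex chosen after its values were seen, was the ninth at 0.53.

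**Figure D2:**
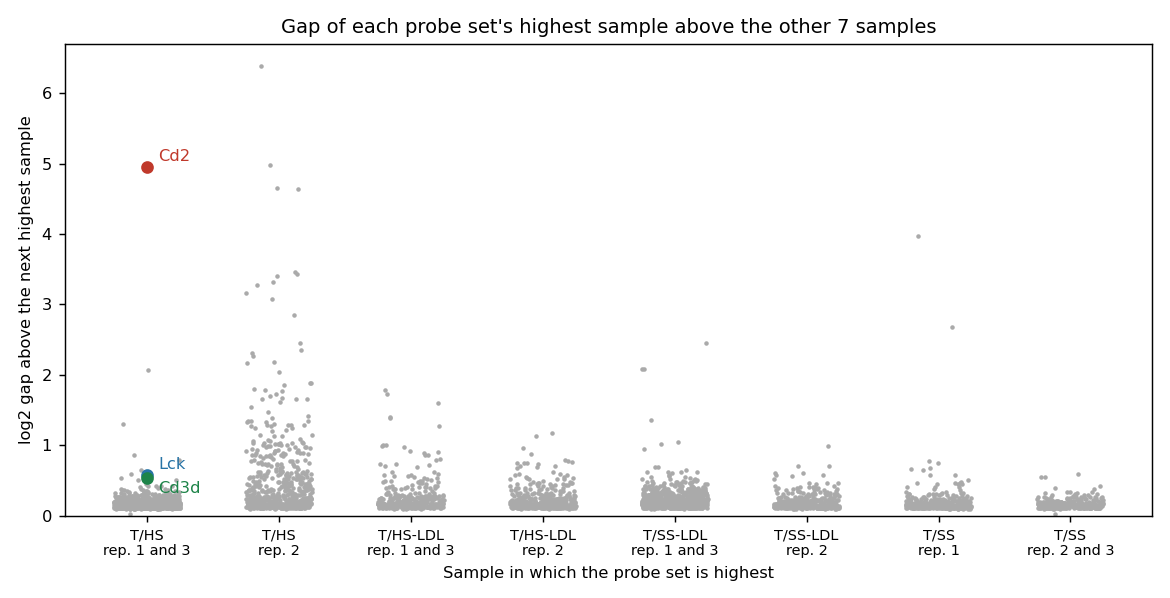
Gap on the log2 scale between the highest and the next highest sample, for each of the 8 T cell probe sets and each other probe set with a gap over 0.1, placed by the sample in which it is highest. Points are spread sideways within a sample for legibility. Cd2 lies at 4.96 in the averaged T/HS pair, where the next probe set lies at 2.07, while T/HS replicate 2 holds many probe sets above 2.07.

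Lck (rc_AA800684_at) followed the same pair at a smaller size. It had 4140, 2420 and 4158 on T/HS replicates 1, 2 and 3. T/HS-LDL arrays had 2176, 2425 and 2317, T/SS-LDL arrays 2445, 2531 and 2435, and T/SS arrays 2771, 2469 and 2456. The averaged T/HS pair was at 4149, and the other 7 samples lay between 2245 and 2771. T/HS replicate 2, at 2420, was inside the range of the other groups, so the T/HS group overlapped all of them. By group mean Lck ran from T/HS (log2 of 11.63 ± 0.55) through T/SS (11.35 ± 0.12) and T/SS-LDL (11.28 ± 0.04) to T/HS-LDL (11.19 ± 0.08; SD, n = 2 each). Both T/HS-LDL samples lay below both T/SS-LDL samples, and T/SS-LDL and T/SS overlapped.

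Cd28, the receptor for Cd80 and Cd86, was close to the bottom of the scale, and its differences were small. With the averaged pair given before the remaining array, it had 82.9 and 79.3 in T/HS, 75.0 and 77.5 in T/HS-LDL, 75.6 and 75.4 in T/SS-LDL, and 91.0 and 77.6 in T/SS lungs. The T/HS-LDL samples lay below those of T/HS, while the T/SS samples spanned the T/HS ones. Cd5, a scavenger-receptor family protein that restrains signalling, was measured by 2 probe sets. The brighter set had 704 and 614 in T/HS, 552 and 532 in T/HS-LDL, 531 and 634 in T/SS-LDL, and 614 and 629 in T/SS lungs. The dimmer set had 237 and 173 in T/HS, 174 and 182 in T/HS-LDL, 165 and 172 in T/SS-LDL, and 184 and 216 in T/SS lungs. Both sets were highest in the averaged T/HS pair, and only the brighter set had both T/HS samples above both T/HS-LDL samples.

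Cd4, the coreceptor of helper T cells that rat monocytes and macrophages also carry, had 1038 and 812 in T/HS, 860 and 847 in T/HS-LDL, 830 and 946 in T/SS-LDL, and 920 and 1020 in T/SS lungs. The T/HS samples were thus the highest and the lowest of the 8. Cd8a, the coreceptor chain of cytotoxic T cells that rat NK cells also carry, had 1113 and 883 in T/HS, 899 and 935 in T/HS-LDL, 866 and 933 in T/SS-LDL, and 972 and 1046 in T/SS lungs. Both T/SS-LDL samples lay below both T/SS samples. Cd8b, which pairs with Cd8a on the surface of T cells, had 816 and 858 in T/HS, 800 and 801 in T/HS-LDL, 770 and 701 in T/SS-LDL, and 873 and 713 in T/SS lungs. It was not highest in the averaged T/HS pair, unlike Cd8a, although the genes are neighbours on the chromosome.

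Set against the median of the other 7 samples, the averaged T/HS pair was higher for every probe set of the 7 genes, by 5.36 for Cd2, 0.77 for Lck, 0.45 and 0.20 for the dimmer and brighter Cd5 sets, 0.27 for Cd4, 0.26 for Cd8a, 0.10 for Cd28 and 0.03 for Cd8b on the log2 scale. It was the highest of the 8 samples for 6 of the 8 probe sets and for 5 of the 7 genes. Over all genes it was the highest sample for 25.8%, more than any other sample. The median over all probe sets of its difference from the other samples was 0.06. Of all probe sets, 20.6% lay more than 0.2 above, so differences of the size seen for Cd4 and Cd8a were common in this sample. More than 0.5 above lay 1.14% of all probe sets, and of the 8 T cell probe sets those of Cd2 and Lck.

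The T/HS group was compared with T/SS for the response to shock and lung injury together. None of the 8 probe sets was called by limma at an adjusted p under 0.05, and none at an unadjusted p under 0.05. Over all 8740 probe sets 0% were called and 8.8% had an unadjusted p under 0.05. Cd2 averaged 9.46 ± 3.85 in T/HS and 7.20 ± 0.04 in T/SS lungs on the log2 scale (SD, n = 2 each), a difference of 2.26 ± 1.48 (SE) with a 95% interval of -1.25 to 5.78 and an adjusted p of 0.699 from limma. Lck differed by 0.28 ± 0.23 (SE), with an adjusted p of 0.758 from limma. The other 6 probe sets differed by -0.08 to 0.09. In all, 5 of the 8 means were higher in T/HS, and no probe set had both T/HS samples above or below both T/SS samples, against 19.2% and 20.9% of all probe sets.

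This comparison turns on which T/HS sample is kept. Without T/HS replicate 2, Cd2 differed by 4.98 ± 0.20 (SE), with an adjusted p of 0.00266 from limma, and 7 of the 8 means were higher in T/HS. In that fit 5 of all 8740 probe sets, 0.0572%, were called. Without the averaged T/HS pair, Cd2 differed by -0.46, Lck by -0.11, and 1 of the 8 means was higher in T/HS. None of the 8 was called there, where 139 of all probe sets were. In each of these fits the remaining T/HS sample is assumed to vary like the other groups.

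Among shocked rats, an open duct was set against a ligated one, a contrast that the study used for lung injury. All 8 means were higher in T/HS, as were 54.8% of all probe sets, with a median difference of 0.15 against 0.02 over all probe sets. No probe set was called by limma, where 0% of all were called, and none had an unadjusted p under 0.05, against 6.37% of all. The brighter Cd5 set had the smallest p of the 8, with a difference of 0.28 ± 0.12 (SE) and an adjusted p of 0.775 from limma. Lck differed by 0.44 ± 0.23 (SE), with a 95% interval of -0.11 to 1.00, and Cd2 by 2.56 ± 1.48 (SE), with an interval of -0.95 to 6.08. The brighter Cd5 set, Cd8b and Cd28 had both T/HS samples above both T/HS-LDL samples, which is 3 of 8 where 18.4% of all probe sets did so, and none had both below, against 15.7%. Without the averaged T/HS pair, 4 of the 8 means were higher in T/HS and Cd2 differed by -0.16. Without T/HS replicate 2, all 8 were higher and Cd2 differed by 5.29, with an adjusted p of 0.00188 from limma, where 4 of all probe sets, 0.0458%, were called. In the fit without the averaged pair none of the 8 was called, against 66 of all.

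With the duct ligated, shock was compared with sham shock, which the study used for shock without lung injury. T/HS-LDL means were higher than T/SS-LDL means for 5 of the 8 probe sets, with differences from -0.10 to 0.15. The adjusted p from limma was 0.998 for each of the 8, where 0% of all probe sets were called, and none had an unadjusted p under 0.05, against 3.79% of all. Lck differed by -0.09 ± 0.23 (SE) and had both T/HS-LDL samples below both T/SS-LDL samples, as did 12.4% of all probe sets. Cd8b, at 0.12, and the dimmer Cd5 set, at 0.08, had both T/HS-LDL samples higher, as did 16.8%. For the dimmer Cd5 set the margin was small, 173.6 against 171.9. Before averaging, its T/HS-LDL replicate 3, at 169.3, lay below T/SS-LDL replicate 2. Cd2 differed by 0.15 ± 1.48 (SE), where the large error comes from the spread of the T/HS samples that the fit shares.

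Ligation was compared with an open duct in sham-shocked rats. All 8 means were lower in the T/SS-LDL lungs than in those of T/SS rats, with a median difference of -0.14 against -0.02 over all probe sets. None was called by limma, where 0% of all were called, the smallest adjusted p of the 8 being 0.896, and none had an unadjusted p under 0.05, against 4.23% of all. Both T/SS-LDL samples lay below both T/SS samples for 4 of the 8 probe sets, those of Cd2, Cd8a and Cd28 and the dimmer Cd5 set, against 24.5% of all, and above for none, against 16.2%. Their differences were -0.45 ± 1.48 for Cd2, -0.17 ± 0.13 for Cd8a, -0.15 ± 0.11 for Cd28 and -0.24 ± 0.16 for the dimmer Cd5 set (SE). At least 7 of the 8 means were lower whichever sample of these groups was left out. This comparison does not use the T/HS samples, apart from the shared estimate of spread.

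**Figure D3:**
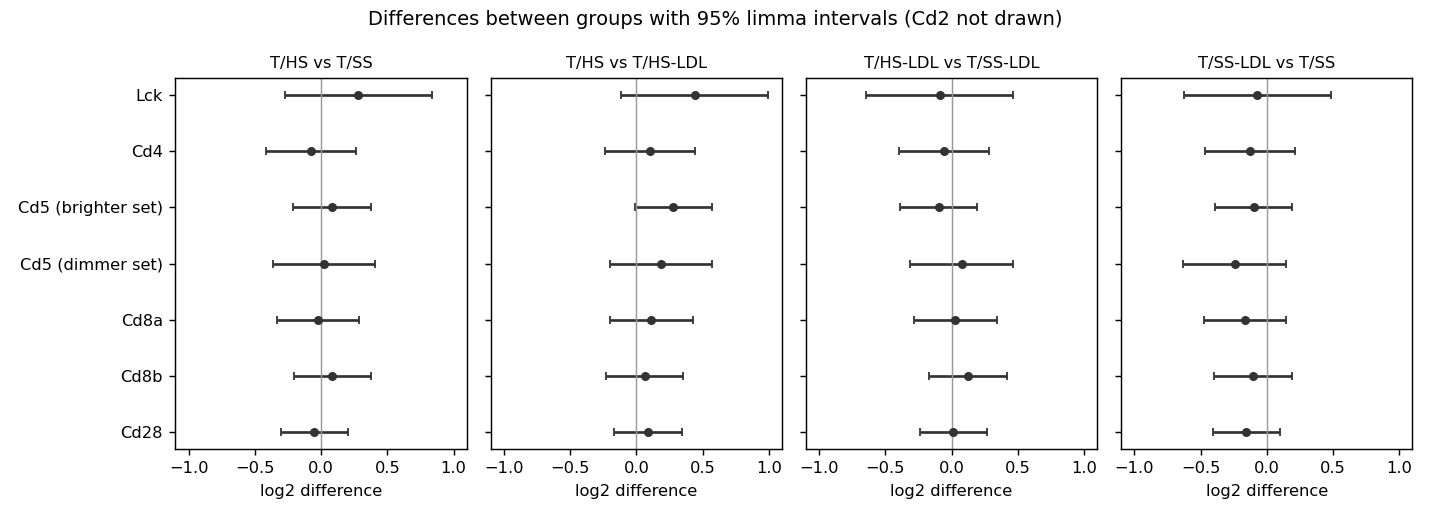
Differences in mean log2 intensity (points) with 95% intervals from limma (bars) for 7 probe sets in 4 comparisons. Cd2 is left out because its interval, -1.25 to 5.78 for T/HS vs T/SS, would set the scale. Every interval drawn includes 0, and the points of T/SS-LDL vs T/SS all lie below 0.

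Over both shock states, ligated samples had lower means than samples with the duct open for all 8 probe sets. Cd28 had all 4 ligated samples below all 4 others, as did 2.65% of all probe sets, and none had them above, against 1.83%. The margin for Cd28 was small, 77.48 in T/HS-LDL replicate 2 against 77.63 in T/SS replicate 1. Its level was near the bottom of the scale, at the 4.61 to 7.85 percentile. No probe set was called by limma, where 0% of all were called, and none had an unadjusted p under 0.05, against 8.08% of all. Lck differed by -0.26 ± 0.16 and Cd2 by -1.51 ± 1.05 (SE). Over both duct states, shock gave higher means for 5 of the 8 probe sets, with 0.09 ± 0.16 for Lck and 1.21 ± 1.05 (SE) for Cd2. No probe set had all 4 shocked samples above or below all 4 others, against 2.49% and 2.15% of all. None of the 8 was called by limma there, where 0% of all were called and 9.04% had an unadjusted p under 0.05, against 0 of the 8. The interaction, the shock difference with the duct open minus that with the duct ligated, was 0.37 ± 0.33 for Lck and 2.11 ± 2.09 (SE) for Cd2. It was called for none of the 8 by limma, where 0% of all were called and 2.99% had an unadjusted p under 0.05, against 0 of the 8. Leaving out the averaged T/HS pair put Cd2 at -0.15 for ligation, -0.15 for shock and -0.61 for the interaction. Without T/HS replicate 2, limma called Cd2 in each of these 3 contrasts, at -2.87, 2.57 and 4.83 in the same order. The fits without T/HS replicate 2 keep the averaged pair as the only T/HS sample and take its spread from the other groups. The 3 calls therefore rest on 1 sample and are not separate effects of ligation, shock and their interaction. Of all probe sets, 2 (0.0229%), 10 (0.114%) and 1 (0.0114%) were called in those fits, so Cd2 was the only probe set called for the interaction.

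Other genes of T cells and of the cells they meet were followed in 12 lists with 130 measured genes. None of the 130 was called by limma in any of the 7 contrasts. At an unadjusted p under 0.05 there were 24 of 130 (18.5%) for T/HS against T/SS and 11 (8.46%) for T/HS against T/HS-LDL, beside the 8.8% and 6.37% of all probe sets. With the duct ligated, shock against sham shock gave 16 (12.3%), beside 3.79% of all probe sets. Ligation alone, in sham-shocked rats, gave 8 (6.15%), beside 4.23%. For the interaction, shock and ligation there were 5, 26 and 12 of 130, beside 2.99%, 9.04% and 8.08% of all probe sets. These lists were chosen with earlier results of these data known, and the shares have no test. For T/HS against T/SS the 24 include 6 of 10 neutrophil, 6 of 14 monocyte and macrophage and 3 of 21 receptor signalling genes. The T cell receptor and ligand lists had 0 of 5 each. For shock the 26 include 8 of 10 neutrophil, 5 of 14 monocyte and macrophage and 6 of 21 receptor signalling genes. Among 20 listed genes of the T cell receptor complex and other T cell markers, 5 were measured: Cd3d, Cd3g, Cd247, Thy1 and Ctla4. Cd3g, a chain of the receptor complex, had 775 and 472 in T/HS, 483 and 566 in T/HS-LDL, 463 and 510 in T/SS-LDL, and 536 and 579 in T/SS lungs. The averaged T/HS pair was the highest sample and T/HS replicate 2 was inside the range of the rest, the order seen for Lck. Ctla4, an inhibitory receptor for the ligands of Cd28 and its next gene on the chromosome, had 1319 and 1168 in T/HS, against 1149 and 1032 in T/HS-LDL and 1122 and 1199 in T/SS lungs. Cd3d, named after its values were seen, had 745 in the averaged T/HS pair, against 371 in T/HS replicate 2 and 390 to 516 in the other groups.

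The averaged T/HS pair was the highest sample for 3 of these 5 genes, against 25.8% of all genes. The summed intensity of the 5 was 3548 and 2615 in T/HS, 2590 and 2762 in T/HS-LDL, 2616 and 2531 in T/SS-LDL, and 2790 and 2873 in T/SS lungs. All 5 means were lower in T/SS-LDL lungs, against T/SS lungs, with a median of -0.13, and 4 had both T/SS-LDL samples below both T/SS samples, against 24.0% of all genes. For T/HS against T/HS-LDL all 5 means were higher in T/HS, with a median of 0.20 against 0.02 over all genes. Without the averaged T/HS pair 2 of the 5 were higher, with a median of -0.08, and Cd3d and Cd3g in T/HS replicate 2 lay below both T/HS-LDL samples. None of the 5 had an unadjusted p under 0.05 in any contrast.

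Signalling genes downstream of the receptor varied among themselves. Of 47 listed, 21 were measured, and 15 of them lay above the median on all arrays. The averaged T/HS pair was highest for 6 of the 21, against 25.8% of all genes. Among the 6 was Lat, the adaptor that carries the signal onward, named after its values were seen, at 1135 against 778 to 1010 in the other samples. Against T/SS, 13 of 21 means were higher in T/HS with a median of 0.09, and against T/HS-LDL 11 of 21 were higher with a median of 0.00090. The farthest above T/SS were Lcp2 at 0.72 ± 0.18 and Ptpn6 at 0.52 ± 0.14 (SE). Of the 8 lower means, Ppp3ca was farthest at -0.44 ± 0.18 (SE). These 3 are named after their values were seen. Itpr3, a calcium channel, had 6385 and 4383 in T/HS and 5132 to 5442 in the duct-ligated and 5462 and 5671 in the T/SS lungs. Plcg1, a phospholipase that Lat recruits, had 4612 and 3958 in T/HS and 5167 and 4740 in T/SS lungs.

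Of the interleukin 2 family, 12 of 16 genes were measured. The cytokine Il2 was at 61.5 to 79.2 and the receptor chain Il2ra at 143 to 174 in the 8 samples, and both are named after their values were seen. Il4r had 4772 and 8162 in T/HS and 4982 and 6077 in T/SS lungs, and Il15 had 1932 and 4892 in T/HS and 2107 and 2528 in T/SS lungs. For both, T/HS replicate 2 was the highest sample, and the averaged T/HS pair was below both T/SS samples. Of the ligands, 5 of 8 were measured. Cd48, which Cd2 binds, had 2685 and 5178 in T/HS, 3802 and 4142 in T/HS-LDL, 4460 and 4100 in T/SS-LDL, and 3834 and 3676 in T/SS lungs. The sample with the highest Cd2 was thus the lowest for its ligand. Cd59b, a complement inhibitor, ranged from 21406 to 25330, and no ligand was highest in the averaged T/HS pair. Of 21 homing genes, 12 were measured and 5 were highest in that pair, against 25.8% of all genes. The integrin Itgb1 had 14289 and 17032, and the adhesion molecule Icam1 11757 and 16540, in T/HS against 18691 and 16168, and 15827 and 18492, in T/SS lungs.

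Markers of other cells that carry some of the 7 genes were set beside them. NK and cytotoxic cells had 17 of 31 genes measured, 7 of them highest in the averaged T/HS pair, against 25.8% of all genes. Their summed intensity was 27719 and 27030 in T/HS, 26067 and 28319 in T/HS-LDL, 26709 and 26654 in T/SS-LDL, and 26342 and 26522 in T/SS lungs. Gzmk, a granzyme, had 2541 and 1661 in T/HS and 1749 and 2119 in T/SS lungs, and the lysosomal protein gene Lamp1, which makes up most of the sum, ranged from 19135 to 20561. Against T/SS, 9 of the 17 means were higher in T/HS, and 5 had both T/HS samples above both T/SS samples, against 18.7% of all genes. Against T/HS-LDL 14 of 17 were higher, and without the averaged T/HS pair 8 of 17. Prf1, the pore protein perforin, named after its values were seen, had 509 and 679 in T/HS, 292 and 373 in T/HS-LDL, 331 and 451 in T/SS-LDL, and 400 and 379 in T/SS lungs, so both T/HS samples lay above all others. Thymus and lymph node genes, 7 of 15 measured, summed to 10816 and 9983 in T/HS, 7974 and 10977 in T/HS-LDL, 9579 and 10377 in T/SS-LDL, and 8793 and 10508 in T/SS lungs. Rag1, which recombines receptor genes in immature lymphocytes, was at 110 in the averaged T/HS pair, the lowest of 8 samples, and is named because of that value. Lyve1, a lymphatic vessel receptor and the largest part of the thymus and lymph node sum, ranged from 3275 to 6262 and Cd1d1 from 1171 to 1781. B and plasma cell genes, 5 of 23 measured, summed to 12030 and 10628 in T/HS, 12107 and 10766 in T/HS-LDL, 11887 and 10903 in T/SS-LDL, and 10138 and 8280 in T/SS lungs. Their brightest genes, Cd24 and Cd53, ranged from 3652 to 6543 and from 1664 to 3174.

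Monocyte and macrophage genes, 14 of 28 measured, summed to 69956 and 79034 in T/HS, 68482 and 75315 in T/HS-LDL, 67297 and 65107 in T/SS-LDL, and 63236 and 65809 in T/SS lungs. Against T/SS, 12 of the 14 means were higher in T/HS, 9 had both T/HS samples above both T/SS samples, against 18.7% of all genes, and 6 had an unadjusted p under 0.05, against 8.8% of all probe sets. With either T/HS sample left out, 11 of 14 were higher. Lyz2, the largest part of the sum, ranged from 25675 to 32470, near the top of the scale, and Lgals3 from 10440 to 12585. As a mean log2 difference from T/SS over the list, the averaged pair was at 0.21 in T/HS and 0.40 in T/HS-LDL. The sums of these pairs have the opposite order. Cd14, a receptor for bacterial lipopolysaccharide, named after its values were seen, had 4690 and 8918 in T/HS, 4987 and 7502 in T/HS-LDL, 2824 and 2899 in T/SS-LDL, and 2448 and 3030 in T/SS lungs. Neutrophil genes, 10 of 23 measured, summed to 39871 and 75248 in T/HS, 65950 and 74850 in T/HS-LDL, 46976 and 36596 in T/SS-LDL, and 29885 and 24378 in T/SS lungs. S100a9 had 11982 and 25752, and Lcn2 14828 and 27298, in T/HS against 10308 and 5624, and 10086 and 11153, in T/SS lungs. In the averaged T/HS pair the neutrophil sum was lower than in the other 3 samples from shocked rats. Lung epithelium had 13 of 16 and endothelium 12 of 17 genes measured, with Sftpc and Ager near the top of the scale, and Ace and Cav1 the brightest endothelial genes. Ace had 25473 and 21717, and Cav1 14538 and 8292, in T/HS against 23650 and 24020, and 14031 and 13358, in T/SS lungs. Against T/SS, 8 of 13 epithelial and 8 of 12 endothelial means were lower in T/HS. Among them, named after their values were seen, were Aqp5 at -0.80, Cyp4b1 at -0.63, Kdr at -0.55 and Pdpn at -0.44 on the log2 scale. The other 5 epithelial and 4 endothelial means were higher. Of these, Selp was farthest, at 1.42 ± 0.90 (SE), and is also named after its values were seen. The median difference was -0.0097 for the epithelial and -0.071 for the endothelial list, against -0.0100 over all genes. The epithelial median is the value of Ager. In the averaged T/SS pair, Ager, Sftpc, Sftpa1 and Sftpb all had the same intensity of 30915, a level at which a difference may not show. The part of any of these cells in the levels of the 7 genes was not tested.

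**Figure D4:**
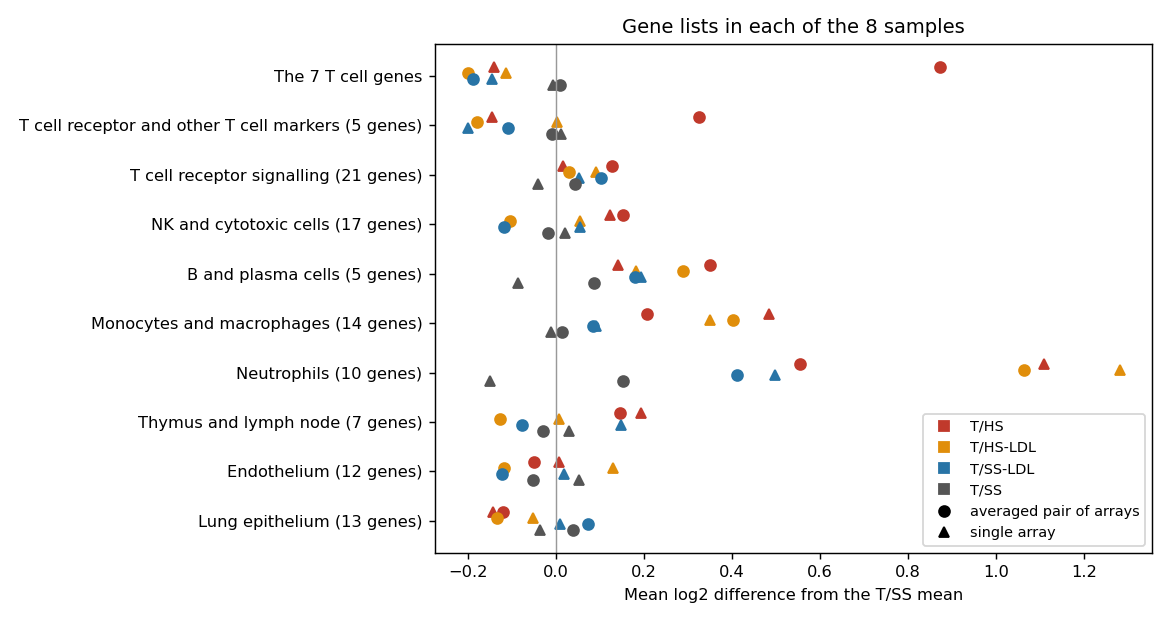
Mean log2 difference from the T/SS mean of the genes of each list, in each of the 8 samples. Circles are averaged pairs of arrays, triangles single arrays, and colours the groups. The 7 T cell genes stand at 0.87 in the averaged T/HS pair, the T cell receptor list at 0.33 and the signalling list at 0.13, while the neutrophil list is highest in T/HS-LDL replicate 2.

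Cd2 carried most of the mean of the 7 genes in the averaged T/HS pair, which was 0.87 above T/SS. With Cd2 left out, the mean over the other 6 genes was 0.19 in that pair and -0.09 in T/HS replicate 2. It was -0.14 and -0.12 in T/HS-LDL, -0.16 and -0.08 in T/SS-LDL, and 0.00497 and -0.00497 in T/SS lungs. The 6 genes were thus highest in the averaged T/HS pair and lowest in a T/SS-LDL sample, and the 5 samples other than that pair and T/SS lay between -0.16 and -0.08.

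Across the 8 samples the probe sets varied unequally together. Against the mean profile of Lck, Cd4, Cd8a and Cd8b, Pearson's r was 0.96 for Lck, 0.94 for Cd8a, 0.82 for Cd4 and 0.09 for Cd8b, which are part of that profile. It was 0.94 and 0.81 for the dimmer and brighter Cd5 sets, 0.93 for Cd2 and 0.49 for Cd28. Without the averaged T/HS pair, r over the remaining 7 samples was 0.77 for Lck, 0.76 for Cd2, 0.95 for Cd8a and 0.83 for Cd4. Cd8b had -0.14 there. The genes outside the 7 with the most similar profile were Fbxl17l1 (r of 0.98), Neurl2 (0.97), Igf2 (0.97), Rnf157 (0.96) and Renbp (0.95). In the 7 samples without the averaged T/HS pair, r was 0.95 for Fbxl17l1, 0.96 for Neurl2 and 0.78 for Rnf157. In all, 35 of 2711 genes compared, 1.29%, reached an r over 0.9, and arrays of this kind share a normalization.

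Genes beside the 7 on the chromosome were few on the array. Within 5 genes to each side in RefSeq (GRCr8), 14 of 70 positions were measured, counting a gene again where it neighbours more than 1 of the 7. Cd2 had Ptgfrn measured, which was 0.06 below the median of the other samples in the averaged T/HS pair. Fam229a, near Lck, was 0.23 above. Ctla4, next to Cd28, was 0.23 above, while Cd28 itself was 0.10 above. In that pair 20.6% of all probe sets lay more than 0.2 above. Of the other neighbours outside the 7 genes, Cops7a was at 0.22, Nrp2 at 0.15, Tkfc at 0.14 and Gnb3 at 0.13. Ptms was at 0.07, Fabp1 at 0.003, Abi2 at -0.05 and Kdm3a at -0.05.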

How the data were processed

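Rat lung RNA, labelled with biotin, was hybridised to 12 Affymetrix arrays of 1 colour. Per the submitters' processing notes the authors made the deposited intensity values with RMA, which corrects background, normalizes between arrays and summarises the probes of a set, with no version given in the sources used here. The values are linear, so log2 was taken with no further scaling. Symbols came from the platform annotation: of 8799 probe sets, 59 controls were left out, 7006 carried 1 symbol, 308 several and 1426 none. Nothing in the values gives a depth, and the number of arrays limits the precision.

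Arrays of a group with a robust SD of log2 differences under 0.1 were averaged, which left 8 samples. The labels call the 12 arrays biological replicates, and p-values measure only the spread between these samples. One model over the 4 groups was fitted in R 4.3.3 by lmFit and eBayes of limma 3.58.1 (4 residual and 2.85 prior degrees of freedom, prior SD 0.131). Tests were two-sided, with Benjamini-Hochberg adjustment over 8740 probe sets and a threshold of 0.05. The fit was tested on simulated data. Comparisons share groups, so T/HS against T/SS and against T/HS-LDL use the same T/HS samples.

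The 7 genes, the 12 lists and the naming rule were chosen with earlier results of these data known. Of each list, the brightest probe set stood for a gene, and the 2 genes with the highest mean were named, with up to 3 past the threshold per comparison; others are said to be chosen after their values were seen. Similar genes were the 5 with the highest Pearson correlation, over 8 samples, to the mean profile of the probe sets above the median on all arrays. The lists were T cell receptor and T cell markers, receptor signalling, interleukin 2 family, ligands, homing, NK and cytotoxic cells, B and plasma cells, monocytes and macrophages, neutrophils, thymus and lymph node, lung epithelium and endothelium. Alternatives were 12 separate arrays, with and without a replicate block, a random block for the sample, quantile normalization, median centring, an offset of 100, a filter on dim probe sets, an intensity trend with a robust prior, fits of the compared groups alone, and leaving out each sample.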

Additional observations from a re-analysis of the deposited data

How the results depend on the processing

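The 4 pairwise comparisons of the 8 probe sets, and all 7 contrasts of Lck and Cd2, were recomputed 621 times under other settings, of which 218 left the difference as it was, nearly all because they change only its error or leave out a group not compared. Of the other 403, 32 changed sign, and 5 in all passed the threshold where no value did with all 8 samples. Of the sign changes, 26 came with a sample left out. Such a fit keeps 1 sample in that group and takes its spread from the other groups. The number called among the 8 probe sets, 0 in each contrast, ranged from 0 to 1 with samples left out for T/HS vs T/SS, T/HS vs T/HS-LDL, the interaction, shock and ligation, where the 1 was Cd2 without T/HS replicate 2, in fits that called 5, 4, 1, 10 and 2 of all 8740 probe sets. With 12 arrays as separate samples, 1 was called for ligation, the brighter Cd5 set at -0.22 (adjusted p = 0.0436 from limma), and 0 in the other contrasts. Calls over all probe sets then numbered 629 for T/HS vs T/SS and 970 for ligation, against 0 and 0 with 8 samples. With a sample left out, the log2 differences that changed sign ranged as follows. For T/HS vs T/SS they ran from -0.11 to 0.67 for Lck, -0.46 to 4.98 for Cd2, -0.25 to 0.10 for Cd4, -0.016 to 0.18 for the brighter Cd5 set, -0.21 to 0.25 for the dimmer Cd5 set, -0.19 to 0.14 for Cd8a, -0.061 to 0.23 for Cd8b and -0.17 to 0.063 for Cd28. For T/HS vs T/HS-LDL they ran from -0.16 to 5.29 for Cd2, -0.071 to 0.28 for Cd4, -0.040 to 0.41 for the dimmer Cd5 set and -0.055 to 0.28 for Cd8a. For T/HS-LDL vs T/SS-LDL they ran from -0.074 to 0.38 for Cd2, -0.15 to 0.039 for Cd4, -0.22 to 0.032 for the brighter Cd5 set, -0.025 to 0.082 for Cd8a and -0.010 to 0.037 for Cd28. For T/SS-LDL vs T/SS they ran from -0.16 to 0.013 for Lck, -0.23 to 0.028 for the brighter Cd5 set and -0.25 to 0.043 for Cd8b. For the interaction they ran from -0.020 to 0.76 for Lck and -0.61 to 4.83 for Cd2. For shock over both duct states they ran from -0.10 to 0.29 for Lck and -0.15 to 2.57 for Cd2. For T/HS vs T/SS the sign changed without the averaged T/HS pair for Cd2, Lck and both Cd5 sets, without T/HS replicate 2 for Cd4 and Cd8a, without T/SS replicate 1 for Cd8a and Cd8b, and without the averaged T/SS pair for Cd28 and the dimmer Cd5 set. With 12 separate arrays, Cd4 was at 0.0064 and Cd8a at 0.049 for T/HS vs T/SS, against -0.08 and -0.02 with 8 samples. Cd28 for T/HS-LDL vs T/SS-LDL was at -0.0072 with quantile normalization and -0.0068 with median centring, against 0.01. The cause was not tested.

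The replicate block could be fitted only with 12 separate arrays. It gave 0.0064 for Cd4 and 0.049 for Cd8a in T/HS vs T/SS, called 0 of the 8 probe sets in each contrast, and moved calls over all probe sets for T/HS vs T/SS to 456, against 629 without it, for T/HS vs T/HS-LDL to 130 against 372, for T/HS-LDL vs T/SS-LDL to 47 against 127, for T/SS-LDL vs T/SS to 21 against 141 and for ligation to 518 against 970. In 3 of 18 pairs of same-numbered arrays the deviations had an r over 0.1 (range -0.17 to 0.19). Each group holds a near-identical pair of arrays, so the 18 values are not separate checks and cannot decide whether the numbers pair samples. The numbers were not taken to do so.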
